A study of Homo sapiens with 9 samples.

Results

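The transcripts of 9 receptor genes were followed in NLF, an established human neuroblastoma cell line, by RNA sequencing of total RNA: the receptor tyrosine kinases RET, ALK, NTRK2, NTRK3, PDGFRA and PDGFRB, the neurotrophin receptor NGFR, and the GDNF family co-receptors GFRA2 and GFRA3. They were taken by name from 57757 gene IDs, and each symbol matched 1 ID. The cells, given in the labels as wild type and of neural crest type, had all been transfected with small interfering RNA (siRNA) and taken after 48 hours. The siRNA was a non-targeting control (siNTC), an siRNA against the transcription factor TBX2 (siTBX2) or one against its antisense transcript TBX2-AS1 (siTBX2-AS1), each in 3 biological replicates, for 9 libraries. All cells come from 1 line, and the labels give neither the siRNA sequences nor whether each siRNA was 1 molecule or a pool.

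These receptors carry signals from secreted growth factors into cells of the sympathetic lineage, from which neuroblastoma arises. The neurotrophins, among them BDNF and NTF3, bind TRK kinases such as NTRK2 and NTRK3 and, with lower selectivity, NGFR (p75NTR), which has no kinase. GDNF, neurturin, artemin and persephin bind a GFRA co-receptor that lies in the outer membrane leaflet, and the pair engages the kinase RET. ALK is a receptor for ALKAL1 and ALKAL2 and is mutated or amplified in some neuroblastomas, and PDGFRA and PDGFRB bind dimers of the PDGF chains. The activated kinases pass signals through adaptors to RAS, PI3 kinase and PLC gamma, and ubiquitin ligases, endosomal sorting proteins and phosphatases end those signals.

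Libraries held between 31894280 and 51434090 counts, with the lowest total in siTBX2-AS1 replicate 3. TBX2 was at 110.1 to 127 CPM (counts scaled to a common library size) in siTBX2 against 249 to 276 in siNTC, and TBX2-AS1 at 0.714 to 5.87 CPM in siTBX2-AS1 against 34.0 to 37.5 in siNTC, so that both targets were lower in the libraries labelled for them. TBX2 also stood at 173 to 228 CPM in siTBX2-AS1, a log2 fold change of -0.32 that did not pass the test (adjusted p = 0.172). The 2 genes overlap on opposite strands, and the use of strand in counting is not stated in the labels. Of 15 sympathoadrenal markers, TH, the first enzyme of catecholamine synthesis, was at 0 counts in every library, while the lineage factor HAND2 had a mean level of 49.4 FPKM (fragments scaled by transcript length and library size) in siNTC. The 15 sympathoadrenal markers summed to 279 to 324 FPKM in siNTC. The Schwann and melanocyte markers SOX10 and CDH19 and the leukocyte markers CD3E and LYZ were at 0 counts throughout. Other genes of these lists were detected. The 9 Schwann and melanocyte markers summed to 3.53 to 4.35 FPKM in siNTC, and the 7 leukocyte markers to 0.748 to 1.42 FPKM. The 7 endothelial markers summed to at most 2.26 FPKM in any library.

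In control cells the receptors fell into a more abundant set and a set at a low level, of which GFRA3 and NTRK2 were near the limit of detection. On the FPKM scale, which is per transcript length and so can be compared between genes, GFRA2 was highest in siNTC at 22.2 ± 6.69 (SD, n = 3). PDGFRB followed at 11.5 ± 0.604 FPKM and RET at 9.88 ± 2.10 FPKM, and the libraries of these 2 overlapped. PDGFRA came next at 2.99 ± 0.725 FPKM, with no overlap on either side. Levels were far lower for NTRK3 at 0.314 ± 0.258 FPKM, NGFR at 0.107 ± 0.0707 FPKM and ALK at 0.0446 ± 0.0455 FPKM, each overlapping its neighbour in the order. GFRA3 averaged 0.00368 FPKM, and NTRK2 was listed at 0.

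Set beside the other receptor tyrosine kinases, RET and PDGFRB were among the more abundant ones. Of 58 such genes ranked by mean FPKM in siNTC, PDGFRB was 9, RET 11, PDGFRA 19 and NTRK3 31. The highest were DDR2, a collagen receptor, at 25.8 ± 1.57 FPKM, and IGF1R, the receptor of insulin-like growth factors, at 18.0 ± 3.90 FPKM.

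**Figure D1:**
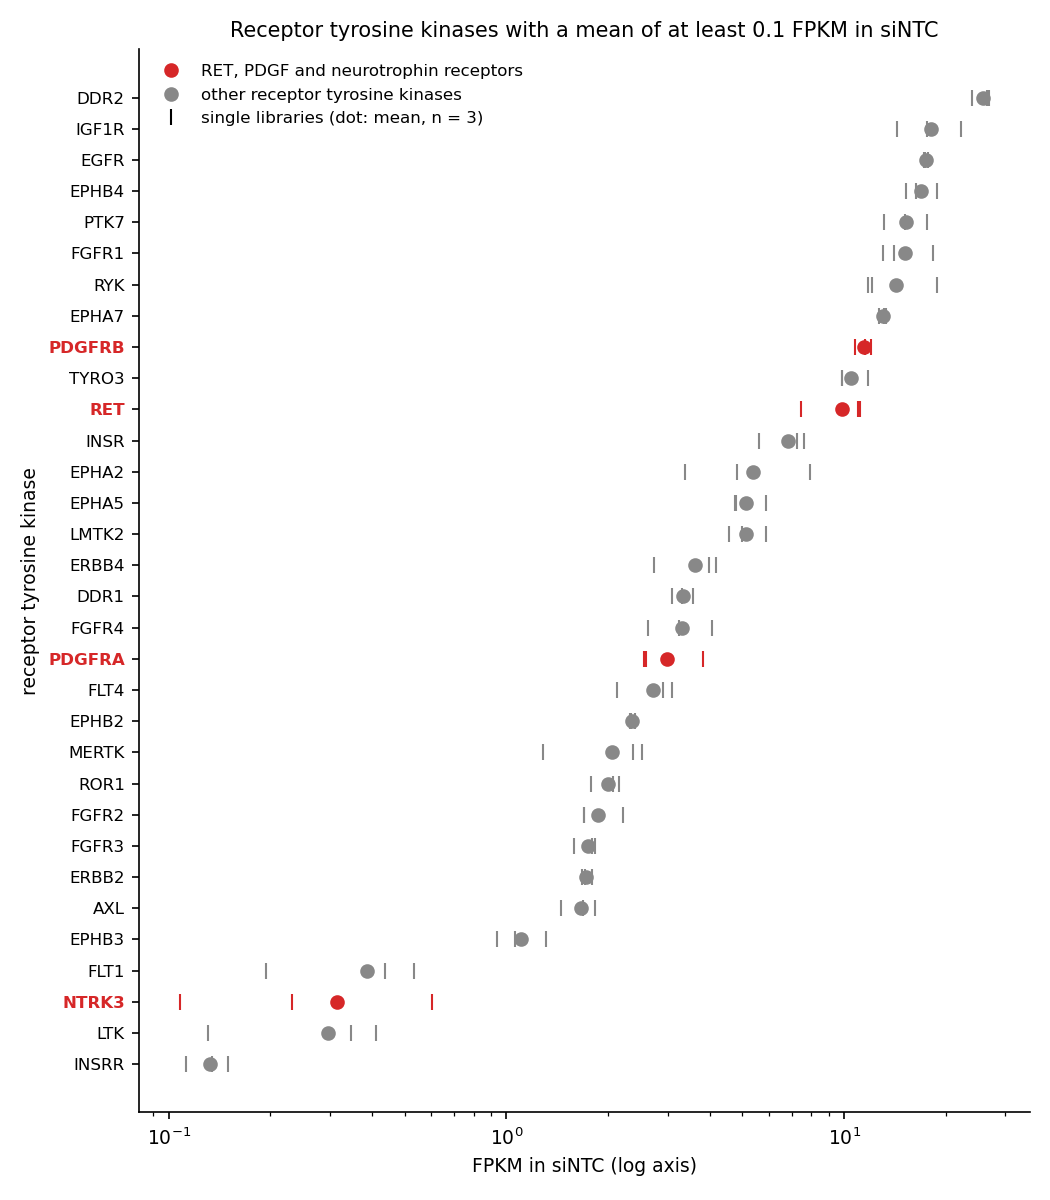
Mean FPKM in the 3 siNTC libraries (dots, log axis) with each library as a tick, for 32 of the 33 receptor tyrosine kinases with a mean of at least 0.1 FPKM. PDGFRB and RET have means of 11.5 and 9.88 FPKM, PDGFRA of 2.99, and NTRK3 lies near the bottom with library ticks from 0.108 to 0.604.

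RET (ENSG00000165731.13) lies on chromosome 10 from 43077027 to 43130351 on the plus strand of GRCh38 (GENCODE release 29) and overlaps no other gene there. It had the smallest p of the 7 receptors tested, both for siTBX2 against siNTC and between the knockdowns. In siNTC its level was 89.7, 63.2 and 94.8 CPM in replicates 1, 2 and 3. With siTBX2 it was 52.7, 50.2 and 42.7 CPM. With siTBX2-AS1 it was 95.1, 75.1 and 93.9 CPM. Every siTBX2 library lay below every library of the other groups, whereas siTBX2-AS1 overlapped siNTC. In bulk RNA, fewer cells that express RET and less RET RNA per cell cannot be told apart.

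The mean of RET in siTBX2 was 58.7% ± 6.30 (SD, n = 3) of that in siNTC. The log2 fold change of siTBX2 against siNTC was -0.77 (SE 0.17), and it missed the threshold over all 18367 tested genes (edgeR quasi-likelihood test with Benjamini-Hochberg adjustment, unadjusted p = 0.00147, adjusted p = 0.0667). Between the 2 knockdowns RET was higher in siTBX2-AS1 by 0.86 on the log2 scale (SE 0.17) and passed (edgeR adjusted p = 0.0228). Against siNTC, siTBX2-AS1 gave 0.09 (SE 0.17, edgeR adjusted p = 0.836). The comparisons with siNTC share the same control libraries.

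Both RET differences kept their direction in all 20 alternative settings, but the calls moved. For siTBX2 against siNTC, RET passed in 3 of them. DESeq2 gave an adjusted p of 0.00278, and the edgeR fit with the replicate number as a block gave 0.0455. Without siNTC replicate 2, whose RET was lowest in its group, edgeR gave a log2 fold change of -0.94 (adjusted p = 0.0370). For siTBX2-AS1 against siTBX2, RET passed in 12 of 20. That call ended on the FPKM scale (adjusted p = 0.0745 with a pseudocount of 0.1). It also ended without siTBX2 replicate 1, 2 or 3 (edgeR adjusted p = 0.0602, 0.0686 and 0.0797) and without siTBX2-AS1 replicate 1 or 3 (0.0847 and 0.0769).

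**Figure D2:**
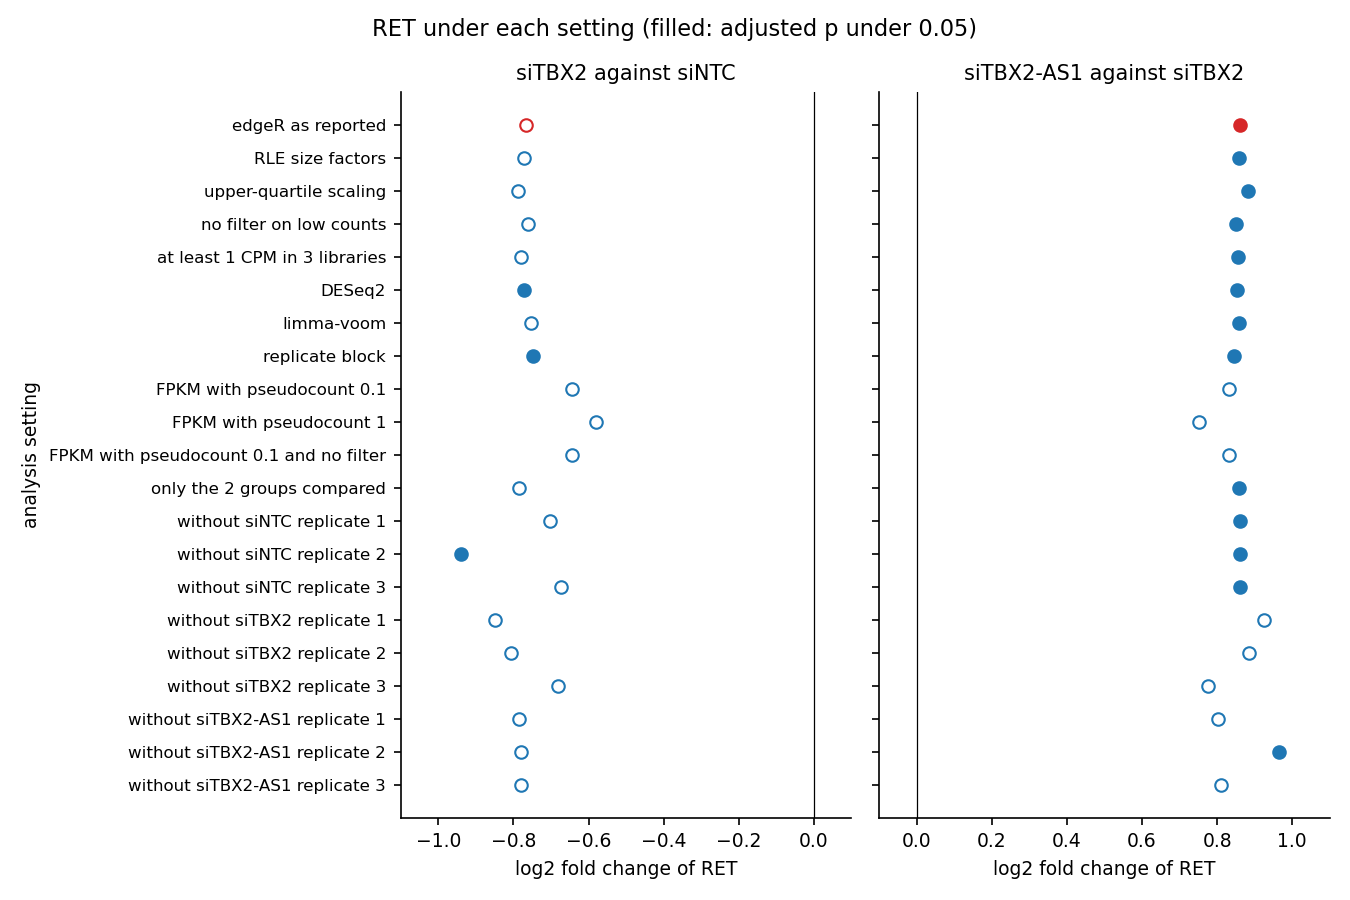
Log2 fold change of RET under the reported edgeR fit (red) and 20 alternatives (blue) for siTBX2 against siNTC and siTBX2-AS1 against siTBX2, filled where the adjusted p is under 0.05. The values stay between -0.94 and -0.58 in the first panel, where 3 alternatives pass, and between 0.75 and 0.97 in the second, where 12 pass.

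The bases before the RET start site are shown because TBX2 is a T-box factor that binds DNA, together with those of PDGFRB, the receptor of similar abundance whose siTBX2 and siNTC libraries overlapped in CPM. Both are the 250 bases before the RefSeq start site at the gene's 5′ end on GRCh38.p14, 5′ to 3′ on the gene's strand, at chr10:43076819-43077068 (plus) and chr5:150155846-150156095 (minus). Capitals mark the T-box core GGTGTG and the GC box GGGCGG, searched on both strands. Neighbouring GC boxes may overlap.
RET: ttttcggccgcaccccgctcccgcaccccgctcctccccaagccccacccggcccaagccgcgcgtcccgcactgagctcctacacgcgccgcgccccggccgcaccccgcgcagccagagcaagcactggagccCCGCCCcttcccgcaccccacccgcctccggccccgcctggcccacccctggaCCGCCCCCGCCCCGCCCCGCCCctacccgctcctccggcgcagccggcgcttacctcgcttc
PDGFRB: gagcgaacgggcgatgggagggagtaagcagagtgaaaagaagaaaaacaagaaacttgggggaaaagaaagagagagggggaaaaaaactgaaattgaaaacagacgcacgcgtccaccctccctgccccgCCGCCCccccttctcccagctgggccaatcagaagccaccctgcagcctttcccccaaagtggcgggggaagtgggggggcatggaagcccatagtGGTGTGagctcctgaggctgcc

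The RET stretch is 79.6% G and C with 33 CpG and 5 GC boxes, and the letters of the T-box core are not in it. The PDGFRB stretch is 58.4% G and C with 9 CpG, and it holds 1 T-box core, followed by A, whose first base is 22 bases before the start site. Among 35116 RefSeq windows of 300 bases (250 before to 50 after a start site), 16.8% hold the T-box core, 3.45% the core with the A, and 45.0% a GC box. Such matches describe letters only.

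Short sequences in 3′ UTRs were more frequent among genes called as lower in each knockdown, and RET carries one of them. In an earlier analysis of these libraries, the 7-base sequence CAGAATG was picked out in genes that fell with siTBX2 and TTAAACT in genes that fell with siTBX2-AS1, so the shares here are no independent evidence. CAGAATG was in the 3′ UTR of 64 of 135 genes that fell with siTBX2 (47.4%), against 17.2% of 13018 tested genes with a 3′ UTR in GENCODE release 29. TTAAACT was in 305 of 463 genes that fell with siTBX2-AS1 (65.9%), against 20.3%. CAGAATG was also in 24.0% of genes that fell with siTBX2-AS1, and TTAAACT in 34.1% of those that fell with siTBX2. Over the 13018 genes, the median log2 fold change with siTBX2 was -0.046 with CAGAATG and 0.022 without it. With siTBX2-AS1 it was -0.12 with TTAAACT and 0.05 without it. The length of the 3′ UTR was not taken into account. Searched on the transcript strand, RET and PDGFRB each hold 1 CAGAATG, shown with 10 flanking bases and the 7-mer in capitals.
RET: tgtccttattCAGAATGagagactgcg
PDGFRB: gcgtcgaagaCAGAATGgacagtgagg

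The RET site lies at chr10:43128745-43128751 (GRCh38, plus strand) in exon 20 of 20 of RET-202, whose 3′ UTR has 2082 bases, and in RET-205 but not in RET-201. The PDGFRB site lies at chr5:150114379-150114385 (minus strand) in exon 23 of 23 of PDGFRB-201, whose 3′ UTR has 1926 bases. RET was lower with siTBX2 and carries the 7-mer of that knockdown, while PDGFRB, with the same 7-mer, overlapped between siTBX2 and siNTC in CPM but not in deposited FPKM (6.32 to 10.79 against 10.81 to 12.0). NTRK3 and NTRK2 have transcripts with both 7-mers, and ALK, NGFR, GFRA2, GFRA3 and PDGFRA have neither in their longest 3′ UTR. The part of these 7-mers in the results on RET was not tested.

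Of the RET co-receptors, GFRA2 (ENSG00000168546.6), which binds neurturin, lies on chromosome 8 from 21690403 to 21812357 on the minus strand of GRCh38 and overlaps a pseudogene on the other strand. It was the most abundant of the 9 receptors and overlapped between all groups. Its level was 97.2, 108 and 136 CPM in siNTC; siTBX2 had 129, 99.0 and 100.3 CPM, and siTBX2-AS1 had 83.5, 88.4 and 108 CPM. The log2 fold changes were -0.06 for siTBX2 against siNTC (SE 0.16, edgeR adjusted p = 0.910), -0.29 for siTBX2-AS1 against siNTC (SE 0.16, adjusted p = 0.399) and -0.23 between the knockdowns (SE 0.16, adjusted p = 0.489). No GFRA2 difference passed, and the libraries of the groups were interleaved.

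GFRA3 (ENSG00000146013.6; chromosome 5 from 138252379 to 138274671, minus strand), the artemin co-receptor, had too few counts to be tested. It had 2, 0 and 0 counts in siNTC, 6, 6 and 2 with siTBX2 and 4, 0 and 9 with siTBX2-AS1. A count of 0 allows up to 3 counts, which corresponds to 0.0583 to 0.0940 CPM of the library totals here and covers counting error only. In CPM every siTBX2 library lay above every siNTC library for GFRA3 (0.0439 to 0.143 against 0 to 0.0392), while a count of 2 occurred in both groups, and the difference was not tested.

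Ligands and partners of RET showed no call in edgeR. Of 10 listed genes 6 were tested, and none passed in edgeR in any of the 3 comparisons. Without adjustment, a p under 0.05 was reached by 0 genes for siTBX2 and 1 for siTBX2-AS1, each against siNTC, and by 1 between the knockdowns. Over all 18367 tested genes it was reached by 2945, 3377 and 3700. DESeq2 called 1 gene of the list between the knockdowns, of 1966 it called in all, and none in the other comparisons. Limma-voom called none of the list. GDNF and artemin (ARTN) stayed under 0.1 FPKM in every library, whereas neurturin (NRTN) had a mean of 2.90 ± 0.211 FPKM in siNTC. NCAM1, an adhesion molecule that also serves as a GDNF receptor, led the list at 15.8 ± 4.54 FPKM, followed by GDF15, a stress-induced hormone that signals through GFRAL and RET, at 6.77 ± 5.97 FPKM. GFRAL itself was at 0 counts in all libraries. GFRA1, the GDNF co-receptor, named here for its role, had 0.276 ± 0.178 FPKM in siNTC.

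NGFR (ENSG00000064300.4; chromosome 17 from 49495293 to 49515017, plus strand) was the other receptor with an unadjusted p under 0.05, at a low level. It had 30, 39 and 8 counts in siNTC, 64, 88 and 41 with siTBX2 and 34, 49 and 18 with siTBX2-AS1. Scaled, these were 0.589, 0.905 and 0.181 CPM, then 1.36, 2.10 and 0.899 CPM, then 0.657, 1.24 and 0.559 CPM. The siTBX2 libraries stood higher on average, but the lowest of them lay just below the highest of siNTC. The log2 fold change of siTBX2 against siNTC was 1.37 (SE 0.57) and did not pass (edgeR quasi-likelihood test with Benjamini-Hochberg adjustment, adjusted p = 0.279, unadjusted 0.0389). That of siTBX2-AS1 against siNTC was 0.55 (SE 0.57, adjusted p = 0.690). An antisense gene overlaps NGFR, and without knowledge of strand use its reads cannot be told apart.

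The TRK receptors among the 9 were scarce. NTRK2 (ENSG00000148053.11; chromosome 9 from 84668551 to 85027070, plus strand), the BDNF receptor, had 0 counts in 8 libraries and 3 in siTBX2-AS1 replicate 2, and was not tested. NTRK3 (ENSG00000140538.12; chromosome 15 from 87859751 to 88256768, minus strand), the NTF3 receptor, had 38, 145 and 74 counts in siNTC, 48, 40 and 70 with siTBX2 and 36, 71 and 20 with siTBX2-AS1. The highest value, 3.36 CPM, came from siNTC replicate 2, and the groups overlapped. Log2 fold changes of NTRK3 were -0.72 (SE 0.58, edgeR adjusted p = 0.619) for siTBX2 and -0.89 (SE 0.59, adjusted p = 0.492) for siTBX2-AS1, each against siNTC. The ratio of CPM of library totals to FPKM for NTRK3 ran from 3.49 to 16.2 between libraries, a 4.63-fold range against 1.21-fold for RET, so its level depends on the deposited scale. NTRK3-AS1 overlaps the gene on the other strand.

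Among 20 neurotrophins and partner genes, 14 were tested and BEX1 was called in all 3 comparisons. This was 7.14% of the 14 in each. Of all tested genes, 1.61% were called with siTBX2, 4.57% with siTBX2-AS1 and 5.53% between the knockdowns. BEX1, a small adaptor that binds NGFR, stood at 38.9, 44.4 and 41.8 CPM in siNTC, 59.8, 63.0 and 68.6 CPM with siTBX2 and 83.2, 81.3 and 80.1 CPM with siTBX2-AS1. The 3 groups did not overlap, in the order siNTC, siTBX2, siTBX2-AS1. BEX1 rose by 0.61 on the log2 scale with siTBX2 (SE 0.08, edgeR adjusted p = 0.0168) and by 0.97 with siTBX2-AS1 (SE 0.08, adjusted p = 0.000983). Between the knockdowns it was higher in siTBX2-AS1 by 0.35 (SE 0.08, adjusted p = 0.0471). The siTBX2-AS1 call against siNTC held with any 1 library left out, with adjusted p up to 0.00562. The siTBX2 call ended for 5 of 9 single libraries (up to 0.0678), and the call between the knockdowns for each of the 9 (up to 0.149).

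The rest of the neurotrophin list had no call in edgeR without a block. DESeq2 called 1, 2 and 1 genes of the list with siTBX2, with siTBX2-AS1 and between the knockdowns. The fit with the replicate number as a block called 3, 3 and 2. NTF3 was at 0 counts in all libraries, and BDNF, named for its role, had 5.03 ± 1.89 FPKM in siNTC. Its level in siTBX2 was 7.90 ± 1.91 FPKM, a log2 fold change of 0.63 (edgeR adjusted p = 0.435). BEX3, which binds the death domain of NGFR, and ARHGDIA, an inhibitor of GTPases that NGFR displaces, were the most abundant partners in siNTC at 94.2 ± 2.15 and 55.4 ± 13.5 FPKM, and neither passed in any comparison.

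ALK (ENSG00000171094.11; chromosome 2 from 29192774 to 29921566, minus strand) was at a low level in NLF. It had 24, 46 and 8 counts in siNTC, 28, 35 and 17 with siTBX2 and 28, 82 and 27 with siTBX2-AS1. The highest library, siTBX2-AS1 replicate 2, reached 2.08 CPM, and the groups overlapped. Log2 fold changes of ALK were 0.07 (SE 0.69, edgeR adjusted p = 0.980) for siTBX2 and 1.00 (SE 0.68, adjusted p = 0.507) for siTBX2-AS1 against siNTC, and 0.93 between the knockdowns (SE 0.68, adjusted p = 0.514). The standard errors were 0.68 to 0.69 against 0.17 for RET, so changes of the size seen in RET could not be resolved for ALK. Whether depth or the spread between cultures set this limit was not tested. Antisense genes overlap it.

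Of 6 ligands and relatives of ALK, 4 were tested and none passed in edgeR or limma-voom, nor in DESeq2, in any comparison. Without adjustment, a p under 0.05 was reached by 1, 2 and 0 genes for siTBX2, siTBX2-AS1 and the knockdowns against each other. The same held for 2945, 3377 and 3700 of all 18367 tested genes. ALKAL1 was at 0 counts in all libraries. Midkine (MDK), a heparin-binding growth factor proposed as an ALK ligand, was the most abundant gene of the list at 176 ± 9.11 FPKM in siNTC, with log2 fold changes of -0.16 for siTBX2 (edgeR adjusted p = 0.326) and -0.24 for siTBX2-AS1 (adjusted p = 0.109). Pleiotrophin (PTN), its relative, had 10.1 ± 2.53 FPKM in siNTC and 16.1 ± 1.90 FPKM in siTBX2, a log2 fold change of 0.67 (adjusted p = 0.209).

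PDGFRB (ENSG00000113721.9; chromosome 5 from 150113837 to 150155872, minus strand) and PDGFRA (ENSG00000134853.7; chromosome 4 from 54229097 to 54298247, plus strand), which bind PDGF dimers and mark mesenchymal cells in tissue, were both expressed. PDGFRB was at 52.9, 64.1 and 70.8 CPM in siNTC, 44.1, 52.0 and 69.8 CPM with siTBX2 and 62.1, 63.2 and 87.8 CPM with siTBX2-AS1. PDGFRA was at 24.6, 26.5 and 18.2 CPM in siNTC, 25.4, 27.6 and 20.9 CPM with siTBX2 and 18.9, 25.5 and 12.6 CPM with siTBX2-AS1. Libraries of the groups overlapped in CPM for both genes. Log2 fold changes of PDGFRB were -0.18 for siTBX2 and 0.18 for siTBX2-AS1 against siNTC and 0.36 between the knockdowns (SE 0.20 each, edgeR adjusted p = 0.748, 0.716 and 0.378). Those of PDGFRA were 0.09, -0.28 and -0.37 (SE 0.25 each, adjusted p = 0.909, 0.636 and 0.474). On the FPKM scale PDGFRA in siTBX2 was 78.4% of siNTC, against 107% in CPM, and PDGFRB was 70.6%, against 88.3% in CPM. The log2 fold change of PDGFRB was then -0.53 with a pseudocount of 0.1 and still did not pass (limma adjusted p = 0.385). A protein-coding gene overlaps PDGFRA on the same strand.

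NLF also holds transcripts of other genes that mark mesenchymal cells. The 10 fibroblast and pericyte markers summed to 171 to 219 FPKM in siNTC, 148 to 201 FPKM in siTBX2 and 156 to 228 FPKM in siTBX2-AS1, ranges that overlap. COL3A1, a fibrillar collagen, made up most of this at 115 ± 24.0 FPKM in siNTC, while FAP, a marker of activated fibroblasts, stayed under 0.1 FPKM in every library. The 12 mesenchymal neuroblastoma markers summed to 708 to 807 FPKM in siNTC, but CD44 of this list stayed under 0.1 FPKM in every library. The part of these markers in the levels of PDGFRA and PDGFRB was not tested.

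All 6 PDGF ligands and partners were tested, and 1 was called, between the knockdowns (16.7%, against 5.53% of all tested genes). PDGFB, the B chain, had 22, 8 and 16 counts in siNTC, 4, 8 and 5 with siTBX2 and 27, 22 and 13 with siTBX2-AS1. Between the knockdowns PDGFB was higher in siTBX2-AS1 by 1.94 on the log2 scale (SE 0.45, edgeR adjusted p = 0.0419). With counts this low the call ended for 8 of 9 single libraries left out, with adjusted p up to 0.145. The more abundant PDGFC, a ligand of PDGFRA, was at 7.33 ± 1.34 FPKM in siNTC, and LRP1, an endocytic co-receptor, at 4.25 ± 1.61 FPKM. Neither passed.

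**Figure D3:**
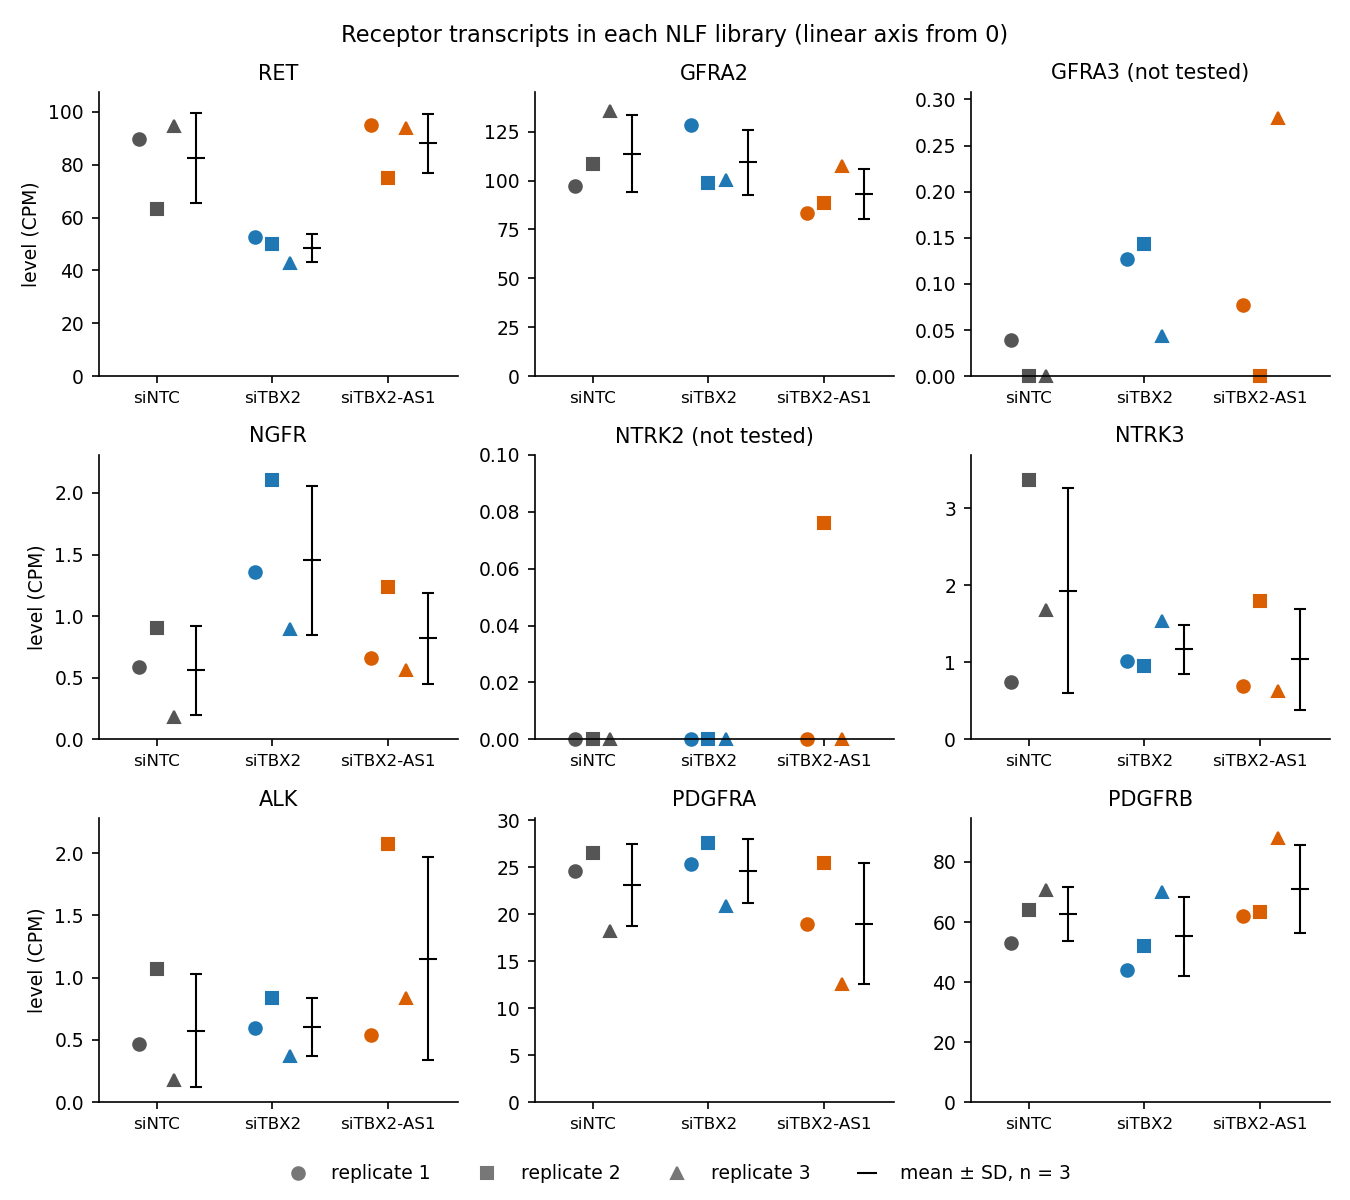
CPM of the 9 receptor genes in each library on linear axes from 0 (circle, square and triangle for replicates 1, 2 and 3, bars for mean ± SD, n = 3, drawn for the 7 tested genes). For RET the siTBX2 libraries, at 42.7 to 52.7 CPM, lie below all others, and for the other 6 tested receptors the groups overlap.

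Over the 9 receptors, 7 could be tested. Of all 18367 tested genes, 2945 reached an unadjusted p under 0.05 with siTBX2, 3377 with siTBX2-AS1 and 3700 between the knockdowns. DESeq2 called 1053, 1618 and 1966 genes in these comparisons, and limma-voom 310, 811 and 1005. In siTBX2 against siNTC edgeR called 0 of 7 (2 at an unadjusted p under 0.05, 1 by DESeq2, 0 by limma-voom), where 1.61% of all tested genes were called (0.795% rose, 0.811% fell). In siTBX2-AS1 against siNTC it called 0 of 7 (0 at an unadjusted p under 0.05, 0 by DESeq2 and by limma-voom), where 4.57% were called (1.79% rose, 2.78% fell). That background was 840 genes, and 1741 in a fit with the replicate number as a block, which called no receptor either. Between the knockdowns edgeR without a block called 1 of 7, RET, where 5.53% were called (2.03% higher, 3.5% lower). For siTBX2 against siNTC the blocked fit called 2 of 7, RET and NGFR, and 873 genes in all. Between the knockdowns the blocked fit called 2 of 7, RET and PDGFRB, and 2084 genes in all. RET was also the 1 tested receptor whose libraries did not overlap in CPM, in siTBX2 against siNTC, where 22.8% of all tested genes did not overlap (10.6% lower), and between the knockdowns, where 26.7% did not (13.1% higher). For siTBX2-AS1 against siNTC, where 24.0% did not, every tested receptor overlapped in CPM. With 7 genes, counts of 0 or 1 cannot be set apart from these shares. In deposited FPKM more receptors separated. The share of all tested genes that separate on that scale was not counted, so these separations cannot be set apart from it. NGFR in siTBX2 (0.176 to 0.396) lay above siNTC (0.0325 to 0.173), and PDGFRB in siTBX2 (6.32 to 10.79) lay below siNTC (10.81 to 12.0). PDGFRA in siTBX2-AS1 (1.64 to 2.47) lay below siNTC (2.55 to 3.83). In the blocked fit of siTBX2-AS1 against siNTC the calls among the partner lists below and above also moved, to 3 neurotrophin partners from 1, 1 ALK ligand from 0, 8 relay genes from 4, 8 turnover genes from 6, 3 MAPK-responsive genes from 2 and 3 further receptor tyrosine kinases from 0.

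**Figure D4:**
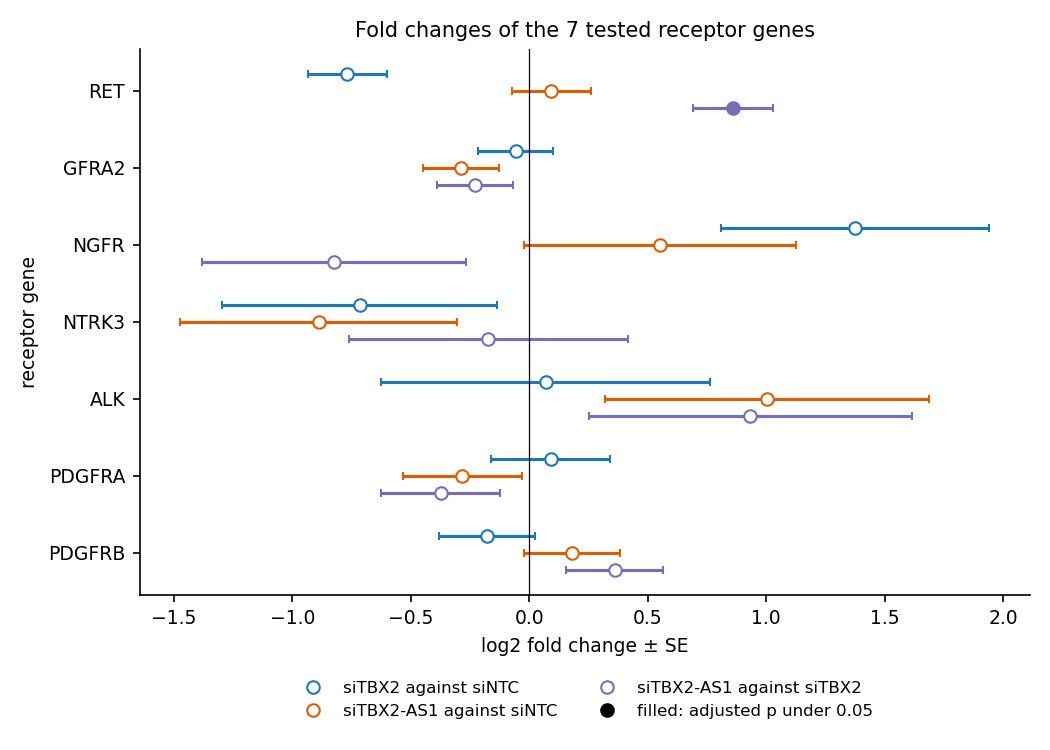
Log2 fold change ± SE of the 7 tested receptors in the 3 comparisons, filled where the adjusted p is under 0.05. Only RET between the knockdowns is filled, at 0.86, and the bars of ALK, NGFR and NTRK3 are the widest.

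Several receptors were ordered by replicate number in the same way within each group. NGFR and PDGFRA were highest in replicate 2 and lowest in replicate 3 in all 3 groups, and PDGFRB was highest in replicate 3 and lowest in replicate 1 in all 3. ALK was highest in replicate 2 in each group. Of all tested genes, 27.1% had the same number highest in all 3 groups, 26.4% the same lowest, and 11.2% both. GDF15, the hormone named above, also followed the replicate number, with 2.16, 10.7 and 23.7 CPM in siNTC, 2.08, 10.5 and 30.1 CPM with siTBX2 and 2.72, 12.9 and 23.8 CPM with siTBX2-AS1. RET, NTRK3 and GFRA2 did not. Fits with the replicate number as a block are given with the processing alternatives.

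Downstream of the receptors, 53 of 54 listed adaptors and relay proteins were tested. With siTBX2 edgeR called 1 of 53, against 1.61% of all tested genes. DESeq2 called 8 of the list (6 rose, 2 fell), of 1053 genes it called in all. The edgeR call was FYN, a SRC family kinase, which rose by 0.75 on the log2 scale (SE 0.08, adjusted p = 0.00849). With siTBX2-AS1, 2 rose and 2 fell of 53 (7.55%, against 4.57% of all tested genes), and DESeq2 called 6, of 1618 in all. FYN rose by 0.42 (SE 0.08, adjusted p = 0.0225). PTPN11, the phosphatase SHP2 that links receptors to RAS, fell by 0.53 (SE 0.07, adjusted p = 0.00558), and PIK3CA, a catalytic subunit of PI3 kinase, by 0.65 (SE 0.13, adjusted p = 0.0242). The median log2 fold change of the 53 was -0.01 with siTBX2 and 0.01 with siTBX2-AS1, against 0.00 and 0.01 over all tested genes. The most abundant relay genes, NRAS and MAP2K2, were at 35.3 ± 2.75 and 33.3 ± 1.68 FPKM in siNTC.

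Between the knockdowns 2 relay genes were higher and 2 lower in siTBX2-AS1 by edgeR, and DESeq2 called 9, of 1966 in all. The edgeR calls were 7.55% of the 53, against 5.53% of all tested genes. GAB2, a docking adaptor, was higher by 0.57 (SE 0.09, edgeR adjusted p = 0.00995), and PIK3R3, a PI3 kinase regulatory subunit, by 0.72 (SE 0.14, adjusted p = 0.0203). PTPN11 was lower, at -0.69 (SE 0.07, adjusted p = 0.00135), and so was the RAS gene NRAS, at -0.65 (SE 0.13, adjusted p = 0.0222). The calls of PTPN11 in both comparisons, of FYN with siTBX2 and of GAB2 held with any 1 library left out. Those of FYN with siTBX2-AS1, PIK3CA, PIK3R3 and NRAS ended for 4 to 5 of 9 single libraries, with adjusted p up to 0.0800.

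Of 22 listed genes that end receptor signals, 21 were tested. With siTBX2, 2 of 21 fell and 0 rose (9.52%, against 1.61% of all tested genes). USP8, a deubiquitinase of endosomes, fell by 0.57 (SE 0.09, edgeR adjusted p = 0.0282) and PTPRK, a receptor phosphatase, by 0.35 (SE 0.07, adjusted p = 0.0469). With siTBX2-AS1, 3 rose and 3 fell of 21 (28.6%, against 4.57% of all tested genes), and 2 to 5 were called with 1 library left out. The fit with the replicate number as a block called 8 of the 21, of which 2 rose and 6 fell. NEDD4, a ubiquitin ligase that acts on several receptors, was at 64.5, 93.1 and 80.3 CPM in siNTC and 31.1, 32.0 and 26.9 CPM in siTBX2-AS1, with no overlap. It fell by 1.40 (SE 0.15, adjusted p = 0.00187). PTPRG, a receptor phosphatase, fell by 0.91 (SE 0.15, adjusted p = 0.0137) and STAM, an endosomal sorting adaptor, by 0.64 (SE 0.13, adjusted p = 0.0287). LRIG1, a membrane protein that promotes receptor degradation, rose by 0.49 (SE 0.10, adjusted p = 0.0340). LRIG1 also stood higher with siTBX2, without a call, at a mean of 15.6 CPM. Its mean was 12.1 CPM in siNTC and 16.9 CPM with siTBX2-AS1.

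Between the knockdowns the same list had 3 genes higher and 3 lower in siTBX2-AS1 of 21 (28.6%, against 5.53% of all tested genes). NEDD4 was lower, at -1.65 (SE 0.15, edgeR adjusted p = 0.00081), and STAM at -0.75 (SE 0.13, adjusted p = 0.0128). PTPRK was higher by 0.65 (SE 0.07, adjusted p = 0.00166) and HGS, the partner of STAM in sorting, by 0.32 (SE 0.06, adjusted p = 0.0261). HGS and the phosphatase PTPRS were the most abundant genes of the list in siNTC, at 45.2 ± 1.87 and 23.4 ± 1.81 FPKM. The calls of NEDD4 in both comparisons, PTPRG, and PTPRK between the knockdowns held without any 1 library. Those of USP8, LRIG1, HGS, STAM and PTPRK with siTBX2 ended for 2 to 9 of 9 single libraries, with adjusted p up to 0.135. On the FPKM scale 1 gene of this list remained called in each comparison of siTBX2-AS1, NEDD4, and none with siTBX2.

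Of 27 listed genes that respond to receptor and MAPK signals, 25 were tested, and edgeR called none with siTBX2 (4 at an unadjusted p under 0.05, 1 by DESeq2, 0 by limma-voom). Over all 18367 tested genes, 2945 reached such a p with siTBX2, and DESeq2 called 1053 genes. Their median log2 fold change with siTBX2 was 0.21, with 17 of 25 positive, against 0.00 over all tested genes. With siTBX2-AS1, 1 rose and 1 fell (8.0%, against 4.57% of all tested genes), with a median of -0.05 against 0.01 over all tested genes. SPRED1, an inhibitor of RAS signalling, was at 94.1, 113 and 112 CPM in siNTC, 124, 134 and 122 CPM with siTBX2 and 54.9, 64.5 and 64.7 CPM with siTBX2-AS1. The siTBX2-AS1 libraries were lowest without overlap. SPRED1 fell by 0.79 against siNTC (SE 0.10, edgeR adjusted p = 0.00468) and was lower against siTBX2, at -1.05 (SE 0.10, adjusted p = 0.00115), and both calls held without any 1 library. VGF, a neuropeptide precursor induced by neurotrophins, rose by 0.89 with siTBX2-AS1 (SE 0.19, adjusted p = 0.0353), a call that ended for 8 of 9 single libraries (up to 0.113). VGF also stood higher with siTBX2, without a call, at a mean of 25.6 CPM. Its mean was 14.9 CPM in siNTC and 27.6 CPM with siTBX2-AS1. CCND1 (cyclin D1) and ETV4, a factor induced by MAPK signals, led the list in siNTC at 57.3 ± 7.05 and 22.0 ± 2.13 FPKM, and neither passed in any comparison.

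The 7-mer of siTBX2-AS1 was also looked up in these called genes. Of 6 ligand, partner and signalling genes that fell with siTBX2-AS1 against siNTC, 5 hold TTAAACT in their 3′ UTR, among them NEDD4 with 1 copy and STAM, PIK3CA and SPRED1 with 3 each, while PTPN11 holds none. Of 7 that rose, 0 hold it. Over all called genes with a 3′ UTR, 65.9% of those that fell and 10.2% of those that rose hold it. With 6 and 7 genes, the counts cannot be set apart from these shares. Between the knockdowns, 5 of 6 that were lower and 4 of 9 that were higher in siTBX2-AS1 hold TTAAACT, against 57.7% and 16.7%. With siTBX2, 1 of 2 that fell and 0 of 2 that rose hold it, against 34.1% and 25.7%. These genes were called from the same libraries in which the 7-mer was found, and its part in their fall was not tested.

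**Figure D5:**
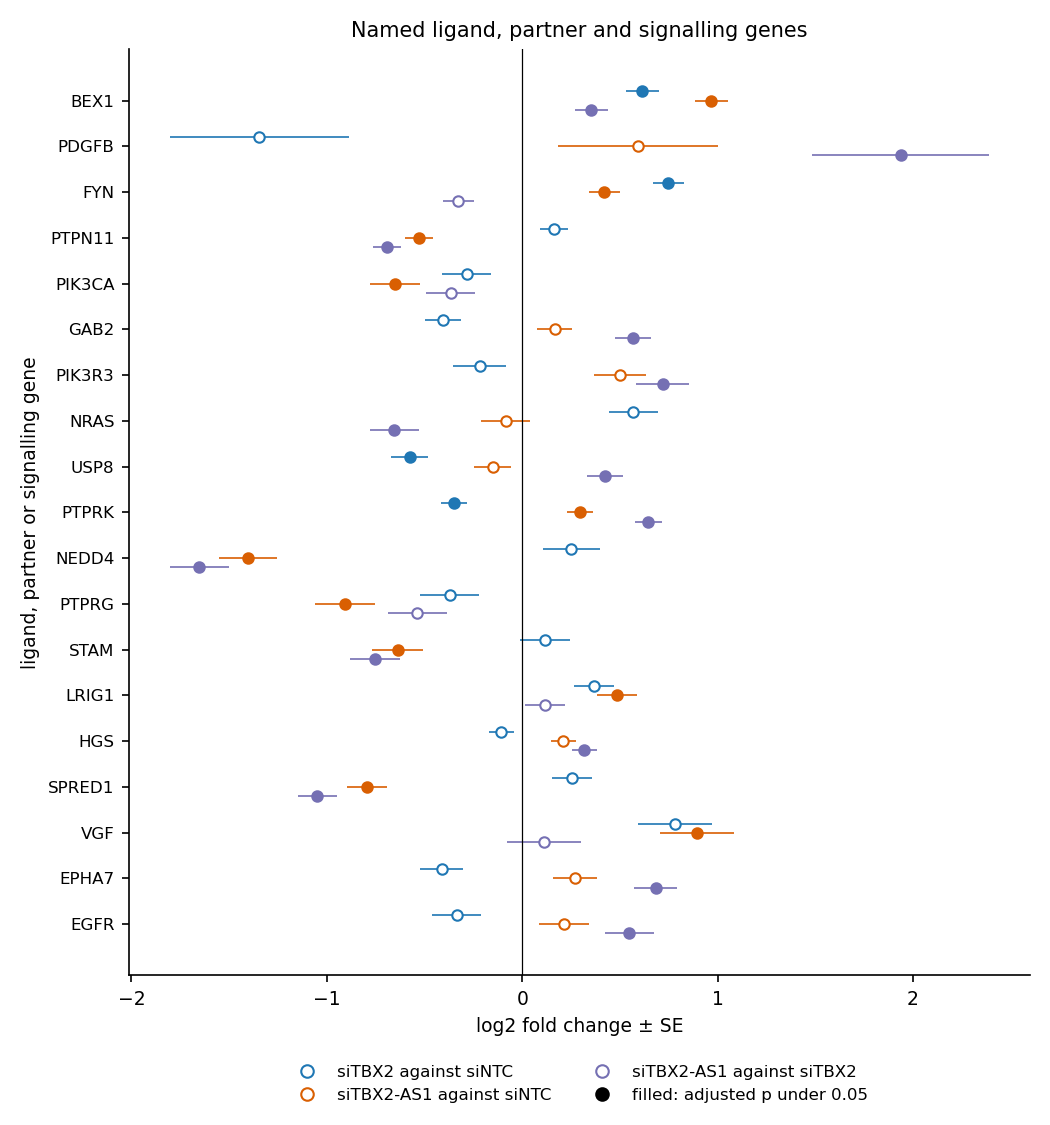
Log2 fold change ± SE of the named ligand, partner and signalling genes in the 3 comparisons, filled where the adjusted p is under 0.05. BEX1 is filled in all 3, NEDD4, SPRED1, PTPN11 and STAM lie to the left of 0 in both comparisons of siTBX2-AS1, and PDGFB has the widest bars.

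Among 50 further receptor tyrosine kinases, 35 were tested. None was called in either knockdown against siNTC by edgeR or limma-voom. Without adjustment, a p under 0.05 was reached by 7 with siTBX2 and 6 with siTBX2-AS1, and DESeq2 called 2 and 1. Over all 18367 tested genes, 2945 and 3377 reached such a p, and DESeq2 called 1053 and 1618 genes. Between the knockdowns EPHA7, an ephrin receptor, was higher in siTBX2-AS1 by 0.68 on the log2 scale (SE 0.11, edgeR adjusted p = 0.0103) and EGFR, the EGF receptor, by 0.55 (SE 0.13, adjusted p = 0.0426). EPHA7 was at 119, 138 and 133 CPM in siTBX2 and 178, 206 and 241 CPM in siTBX2-AS1, and its call held without any 1 library, while that of EGFR ended for 6 of 9 (up to 0.129). These 2 of 35 (5.71%) are close to the 5.53% called over all tested genes. DESeq2 called 4 of the list between the knockdowns, of 1966 genes in all.

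Among the genes most like RET across the 9 libraries were NADK, the cytosolic NAD kinase (Pearson r = 0.96 on log2 CPM), and CCDC50, a ubiquitin-binding coiled-coil protein (r = 0.95), out of 11934 genes whose log2 CPM averaged 2 or more. They were searched for likeness, and the libraries share group and replicate number, so the r values only describe them. RET was lowest in siTBX2, so the fold changes of NADK and CCDC50 follow in part from the search and are no independent evidence. CCDC50 was at 179, 160.1 and 207 CPM in siNTC, 129, 125 and 102 CPM with siTBX2 and 182, 189 and 196 CPM with siTBX2-AS1, with siTBX2 lowest without overlap. CCDC50 fell by 0.62 on the log2 scale with siTBX2 (SE 0.12, edgeR adjusted p = 0.0451) and between the knockdowns was higher with siTBX2-AS1 by 0.67 (SE 0.12, adjusted p = 0.0139). NADK was higher by 0.41 between the knockdowns (SE 0.09, adjusted p = 0.0382). With siTBX2 against siNTC, NADK was at -0.29 and did not pass (SE 0.09, edgeR adjusted p = 0.164).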

How the data were processed

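The 9 libraries were grouped by the siRNA named in their labels. Per the submitters' processing notes, reads were handled with FastQC, STAR 2.4.2a and StringTie 1.3.3 on hg19; the labels do not state the annotation, counting step or use of strand. The deposited expected counts are whole numbers, and the authors' deposited FPKM values were used for levels between genes. Genes kept by filterByExpr (18367) were scaled by TMM and tested with edgeR 4.0.16 (quasi-likelihood, robust, all 9 libraries, no block) with Benjamini-Hochberg adjustment and a threshold of 0.05. The standard error is the absolute log2 fold change before shrinkage over the square root of F. The printed log2 fold changes carry edgeR's small shrinkage, so the 2 can differ at low counts. The steps were tested on simulated data. DESeq2 1.42.0, limma 3.58.1, FPKM with pseudocounts of 0.1 and 1, other scalings and filters, and each library left out in turn were alternatives.

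The members and gene lists were chosen with earlier results of these data known. Named genes were the called genes of each list with the smallest p, the most abundant genes of each list in siNTC, the targets, and the 3 genes most correlated with RET; GFRA1, BDNF and NRTN were added for their roles. Not every gene chosen in this way is reported here. P-values measure only the spread between these cultures of 1 line. Same-numbered libraries of siNTC and siTBX2-AS1 deviated together (r from 0.112 to 0.277 over genes), so counts of calls from the blocked fit are given there. The fold changes, standard errors and adjusted p of single genes are from the fit without a block, unless another fit is named. Coordinates are GENCODE release 29 on GRCh38, not the authors' hg19, matched by gene; promoters are RefSeq, with entries for 7 of the 9 receptors.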

Additional observations from a re-analysis of the deposited data

How the results depend on the processing

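Of the fold-change values recomputed for named genes under each alternative, 874 kept their direction and side of the threshold, 189 no longer passed, 5 newly passed and 27 changed sign. Calls for siTBX2 against siNTC numbered 295, and 184 with no filter on low counts, 1053 with DESeq2, 33, 36 and 17 on the FPKM scale (pseudocount 0.1, pseudocount 1, and 0.1 with no filter), 52 with only the 2 groups compared, and 44 to 177 with 1 library left out. For siTBX2-AS1 against siNTC the 840 calls became 1618, then 352, 345 and 169, then 461, and 402 to 654. For siTBX2-AS1 against siTBX2 the 1015 calls became 1966 with DESeq2, 437, 463 and 227 on the FPKM scale, and 469 to 918 with 1 library left out. Receptors called in siTBX2 against siNTC numbered 1 with DESeq2 and 0 to 1 with 1 library left out, and between the knockdowns 0 on each FPKM scale and 0 to 1 with 1 library left out.

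With the replicate number as a block, calls rose to 873 for siTBX2 against siNTC, 1741 for siTBX2-AS1 against siNTC and 2084 between the knockdowns, and receptors called to 2, 0 and 2. The receptors were RET (log2 fold change -0.75, edgeR adjusted p = 0.0455) and NGFR (1.47, adjusted p = 0.0476) for siTBX2 against siNTC, and RET and PDGFRB (0.37, adjusted p = 0.0433) between the knockdowns. Same-numbered libraries correlated at 0.0761 to 0.246 for siNTC with siTBX2 and 0.0946 to 0.251 for siTBX2 with siTBX2-AS1, each best with its own number, a hint from the data and not the design. No other receptor call changed under the block. Calls among further receptor tyrosine kinases between the knockdowns went from 2 to 6 and relay genes from 4 to 10, and relay genes with siTBX2 from 1 to 4.

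Signs that changed were all of differences that did not pass. On the FPKM scale (pseudocount 0.1, pseudocount 1, and 0.1 with no filter), siTBX2 against siNTC gave -0.028, -0.0084 and -0.028 for ALK, 0.0246, 0.0230 and 0.0246 for GFRA2, -0.32, -0.24 and -0.32 for PDGFRA (78.4% of siNTC) and 0.0320, 0.0306 and 0.0320 for TBX2-AS1. NTRK3 between the knockdowns gave 0.0427 with pseudocount 0.1, filtered or not. With 1 library left out, siTBX2 against siNTC ranged from -0.37 to 0.85 for ALK, -0.21 to 0.0722 for GFRA2, -0.0696 to 0.20 for PDGFRA and -0.11 to 0.0311 for TBX2-AS1. For siTBX2-AS1 against siNTC the range was -0.0794 to 0.19 for RET, negative only without siNTC replicate 2, and -0.0107 to 0.27 for PDGFRB, and for NTRK3 between the knockdowns it was -0.82 to 0.0782. The cause of these changes was not tested. NTRK2 and GFRA3 had too few counts to be tested. Counts of ALK, NGFR and NTRK3 were at most 145 in any library, and the part of depth in their wide standard errors was not tested.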
